A study of Mus musculus with 6 samples.

Results

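The bone morphogenetic protein (BMP) and growth differentiation factor (GDF) ligands are secreted dimers of the TGF-beta superfamily. The 10 genes described here are Bmp2, Bmp3, Bmp4, Bmp5, Bmp6, Bmp7, Bmp8a, Gdf5, Gdf6 and Gdf10. They were taken by gene symbol from a table of 24529 genes, and each symbol occurs once in it. Their transcripts were measured by RNA sequencing in cells of the dermal sheath (DS), the dermal papilla (DP) and the dermis as dermal fibroblasts (DF), isolated by flow sorting. The cells came from dorsal skin of female CD1 mice aged 16 days after birth, in early catagen, the phase in which hair follicles regress. CD1 is an outbred stock, and the labels name no mutation or treatment in any group. There were 6 libraries, 2 biological replicates of each population. The labels do not say whether a replicate came from 1 animal or from a pool, and the sources used here do not give the markers of the sort. Values are RPKM, reads scaled to transcript length and library size, so levels can be set side by side between genes. Of the 10 ligand genes, 6 passed the filter for testing, which asks for 1 RPKM in 2 or more libraries (Bmp2, Bmp3, Bmp4, Bmp6, Bmp7 and Gdf10), and each reached that level in both DF libraries. The other 4 did not pass.

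BMP ligands bind a complex of type I and type II serine/threonine kinase receptors. The type I receptor then phosphorylates SMAD1, SMAD5 and SMAD9, which enter the nucleus with SMAD4 and switch on targets such as the Id genes. Secreted antagonists, among them noggin and gremlin, bind the ligands outside the cell. In skin the pathway is known for holding hair follicle stem cells at rest and for the differentiation of the hair shaft, and BMP signals are also known to help keep dermal papilla cells able to induce follicles.

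The libraries carried the markers of the cells they are labelled as. The summed RPKM of 5 sheath markers (Acta2, Tagln, Itga8, Ednra and Col11a1) was 1924 to 1937 in DS, 39.6 to 41.3 in DP and 23.3 to 28.4 in DF. For 5 papilla markers (Lef1, Sox2, Alpl, Crabp1 and Prdm1) it was 15.2 to 22.7 in DS, 2982 to 3348 in DP and 46.6 to 80.1 in DF, and for 5 fibroblast markers (Col1a1, Dpt, Lum, Dpp4 and Cd34) it was 569 to 579 in DS, 574 to 585 in DP and 31324 to 36906 in DF. Col1a1 made up most of the DF sum, with 35583 and 30019 RPKM, and Dpp4 went the other way, with 0.300 and 0.377 RPKM in DS, 228 and 188 in DP and 62.4 and 81.5 in DF. Read depth relative to DF replicate 2 was 0.418 and 0.497 in DS, 0.672 and 0.532 in DP and 0.696 in DF replicate 1, from the ratio between libraries of values that stand for 1 read. Low values had the fewest reads behind them in DS. Over the 14664 genes tested, log2 differences had a median of 0.53 in DS minus DF, of 0.71 in DP minus DF and of -0.17 in DS minus DP. With median-ratio scaling of the libraries those medians were 0, 0.0044 and 0.0082. Calls rest on limma, with an adjusted p below 0.05 and a log2 difference of 1 or more in size. DS minus DF had 3027 genes called higher and 872 lower, against 1173 and 1491 with median-ratio scaling. DP minus DF had 4613 and 1007, against 1360 and 1950, and DS minus DP had 1381 and 1876, against 1688 and 1428. The microRNA gene Mir6236, named after its values were seen, held 46.6% to 77.1% of the summed RPKM of a library.

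Ligand transcripts were most abundant in the papilla. The summed RPKM of the 10 genes averaged 55.1 ± 3.66 in DS, 1472 ± 175 in DP and 129.7 ± 3.56 in DF (errors are SD, with n = 2 in each population throughout). That sum was 26.7 times as high in DP as in DS and 11.4 times as high in DP as in DF, and 23.1 and 6.27 times as high with median-ratio scaling. In sorted bulk RNA, fewer cells of a type and less RNA per cell cannot be told apart. The make-up of the sum differed between the populations as well. Bmp3 made up 73.8% and 78.2% of it in DS, 22% and 22% in DP and 4.68% and 6.25% in DF. Bmp4 made up 15.6% and 10.1% in DS, 47.2% and 44.5% in DP and 80.9% and 76% in DF. Thus the leading ligand transcript was Bmp3 in the sheath and Bmp4 in the papilla and in fibroblasts. DP was also the population in which Bmp7 and Gdf10 took a sizeable part, with 15.4% and 15.5% for Bmp7 and 10.1% and 11.5% for Gdf10.

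**Figure D1:**
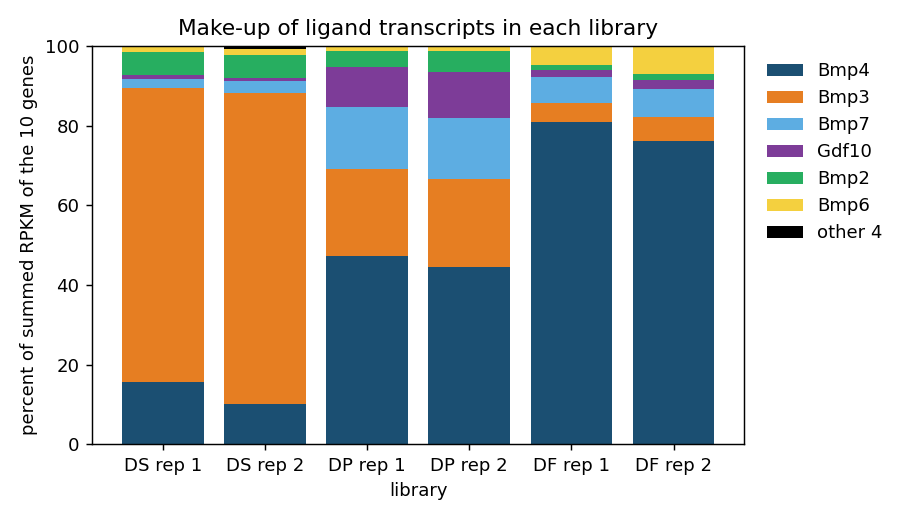
Stacked bars give, for each of the 6 libraries, the percentage of the summed RPKM of the 10 ligand genes that each gene held. Bmp3 fills 73.8% and 78.2% of the DS bars, Bmp4 fills 47.2% and 44.5% of the DP bars and 80.9% and 76% of the DF bars.

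Levels within a population ran in different orders. In DS the order was Bmp3, Bmp4, Bmp2, Bmp7, Bmp6, Gdf10 and Bmp8a, and the libraries of neighbours in it did not overlap. In DP the order was Bmp4, Bmp3, Bmp7, Gdf10, Bmp2, Bmp6 and Bmp8a, again with no overlap between neighbours. In DF Bmp4 came first, Bmp7, Bmp6 and Bmp3 followed with overlapping values, and Gdf10, Bmp2 and Bmp8a came after them. Among the 20179 genes above 0 in at least 1 library, the mean level of Bmp4 was higher than that of 55.2% of genes in DS, 99.5% in DP and 97.1% in DF. Bmp3 stood above 86.3% of genes in DS, 98.8% in DP and 62.2% in DF.

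**Figure D2:**
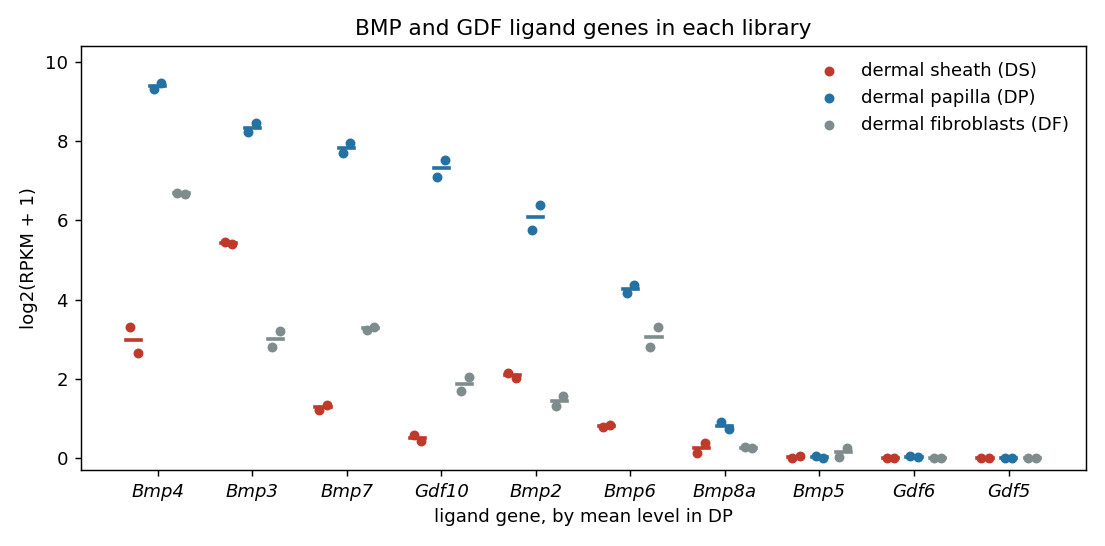
Points give log2(RPKM + 1) of each of the 10 ligand genes in each library and bars the mean of the 2 libraries of DS, DP and DF. For Bmp4, Bmp3, Bmp7, Gdf10, Bmp2 and Bmp6 both DP points lie above every DS and DF point.

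Of the ligand genes, 5 matched an entry of the RefSeq promoter table (build GRCm38.p6): Bmp4, Bmp5, Bmp6, Bmp8a and Gdf10. The 250 bases before the start site in that table are shown for Bmp4, Gdf10 and Bmp6, because these 3 genes were called higher in DP than in DF and in DS, by very different amounts (the DP minus DF log2 difference was 2.71 for Bmp4, 5.43 for Gdf10 and 1.21 for Bmp6). Capitals mark GGGCGG (GC box) and CACGTG (E box) on either strand, 5′ to 3′ on the strand of the gene, and 2 of the GC boxes of Gdf10 overlap.
Bmp4, chr14:46390670-46390919, minus strand: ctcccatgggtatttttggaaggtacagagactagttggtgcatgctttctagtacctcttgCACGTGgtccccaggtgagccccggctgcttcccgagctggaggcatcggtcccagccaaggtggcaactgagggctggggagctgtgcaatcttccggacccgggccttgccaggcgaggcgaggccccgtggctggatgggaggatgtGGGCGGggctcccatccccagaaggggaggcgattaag
Gdf10, chr14:33923337-33923586, plus strand: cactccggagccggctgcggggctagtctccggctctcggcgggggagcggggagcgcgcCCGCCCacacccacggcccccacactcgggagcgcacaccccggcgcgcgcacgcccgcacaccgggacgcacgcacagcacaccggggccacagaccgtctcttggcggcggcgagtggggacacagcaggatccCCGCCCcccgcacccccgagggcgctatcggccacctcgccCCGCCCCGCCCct
Bmp6, chr13:38345466-38345715, plus strand: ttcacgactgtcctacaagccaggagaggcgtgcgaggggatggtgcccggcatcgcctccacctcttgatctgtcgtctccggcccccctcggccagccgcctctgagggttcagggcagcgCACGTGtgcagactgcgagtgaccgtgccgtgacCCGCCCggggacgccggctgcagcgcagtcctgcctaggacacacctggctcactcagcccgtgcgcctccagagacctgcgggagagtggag
The bases just after this start lie in 1 of 4 GENCODE M21 transcripts of Bmp4, in the 1 of Gdf10 and in 1 of 3 of Bmp6. Where in the transcript they lie was not checked, and each window covers 1 start site of the RefSeq promoter table. The GC box was found once in the Bmp4 window, once in that of Bmp6 and 4 times in that of Gdf10, and 32.9% of 27025 promoters of the same length hold it. The E box was found in the Bmp4 and Bmp6 windows, and 6.05% of promoters hold it. The TATA box TATAAA, which 13% of promoters hold on either strand, had no match in these windows. The TCF/LEF core CTTTGA, in 14% of promoters, had none. The SMAD motifs searched were the GC-rich site GGCGCC, in 9.54% of promoters, and the binding element with the letters GTCTAG, in 7.25%, and neither had a match. GC content was 63.2% for Bmp4, 78.8% for Gdf10 and 68.8% for Bmp6, and 98.3% of promoters had a lower GC content than Gdf10. Bmp8a and Bmp5, which stayed near 0 RPKM, had 62% and 42.8%.

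Bmp4 and Bmp2 encode closely related ligands that signal mainly through the type I receptor BMPR1A. Bmp4 (gene ID 12159) had 9.01 and 5.28 RPKM in the DS libraries, 637 and 710.4 in DP and 103 and 101 in DF. The populations did not overlap, with the papilla highest, fibroblasts between and the sheath lowest. The DS minus DF log2 difference was -3.69 (SE 0.23, limma adjusted p = 0.000336). It was 2.71 in DP minus DF (SE 0.23, adjusted p = 0.000704) and -6.41 in DS minus DP (SE 0.23, adjusted p = 6.29e-05). All fold changes and differences here are on the log2(RPKM + 1) scale, which understates the change of low genes. Exons of Gm15217, a gene on the opposite strand, overlap those of Bmp4, and without a stated strand their reads cannot be told apart. Gm15217, named for this overlap after its values were seen, had 0 and 0.179 RPKM in DS, 18.6 and 23.8 in DP and 5.25 and 3.36 in DF.

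Bmp2 (gene ID 12156) was low outside the papilla, with 3.44 and 3.09 RPKM in DS, 53.1 and 83.3 in DP and 1.51 and 1.99 in DF. Its log2 difference was 4.63 for DP minus DF (SE 0.27, adjusted p = 0.000253) and -3.99 for DS minus DP (SE 0.27, adjusted p = 0.000321). Between sheath and fibroblasts it was the 1 tested ligand gene without a call. The DS minus DF difference was 0.64 (SE 0.27, 95% interval -0.03 to 1.30, adjusted p = 0.102), close to the median of 0.53 over all genes, and 0.20 with median-ratio scaling (adjusted p = 0.623). Both DS libraries lay above both DF libraries.

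Bmp7, Bmp6, Bmp5 and Bmp8a belong to another subgroup of BMP ligands, which signals through ACVR1 as well as the BMP type I receptors. Bmp7 (gene ID 12162) had 1.34 and 1.54 RPKM in DS, 208 and 248 in DP and 8.36 and 9.01 in DF. The papilla thus stood far above the other populations, and the sheath was lowest. Bmp7 had a log2 difference of -1.99 in DS minus DF (SE 0.17, adjusted p = 0.000818), of 4.56 in DP minus DF (SE 0.17, adjusted p = 0.000104) and of -6.55 in DS minus DP (SE 0.17, adjusted p = 3.45e-05). The last is a fold of 93.4 on this scale.

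Bmp6 (gene ID 12161) kept the same order at a lower level, with 0.715 and 0.805 RPKM in DS, 16.9 and 19.6 in DP and 5.97 and 8.86 in DF. Its level was lower in DS than in DF (-2.24 on the log2 scale, SE 0.24, adjusted p = 0.00168) and lower in DS than in DP (-3.45, SE 0.24, adjusted p = 0.000375). Its higher level in DP than in DF was called as deposited, with a difference of 1.21 (SE 0.24, adjusted p = 0.00896). That call ended with median-ratio scaling (difference 0.44, adjusted p = 0.136), with rescaling to the same sum without Mir6236 (0.97, adjusted p = 0.0161), without DF replicate 1 (0.96, adjusted p = 0.0336) and without DP replicate 2 (1.11, adjusted p = 0.0512), and adjusted p ranged from 0.00766 over the alternatives. The DP libraries lay above the DF libraries in the deposited values. Txndc5, a gene on the opposite strand whose exons overlap those of Bmp6, was named after its values were seen and had 32.2 and 36.8 RPKM in DS, 21 and 29.5 in DP and 66.9 and 58.8 in DF.

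Bmp8a (gene ID 12163) stayed below 1 RPKM, with 0.103 and 0.299 in DS, 0.873 and 0.656 in DP and 0.214 and 0.196 in DF. The DP libraries were again above all others. When genes of any level were kept in the fit, the log2 difference was 0.55 for DP minus DF (adjusted p = 0.0223) and -0.56 for DS minus DP (adjusted p = 0.0339), both under the minimum of 1 set for a call. Bmp8b, a close paralog that may share reads with it, had 0.191 and 0.396 RPKM in DS, 1.03 and 0.894 in DP and 0.0219 and 0.256 in DF. Bmp5 (gene ID 12160) was listed at 0 and 0.0441 RPKM in DS, 0.0327 and 0 in DP and 0.0291 and 0.197 in DF. With values this close to 0, no order of the populations can be read for Bmp5.

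Bmp3 and Gdf10, whose other name is Bmp3b, form a separate branch of the family, and Bmp3 is known as a ligand that counters other BMPs rather than activating SMAD1 and SMAD5. Bmp3 (gene ID 110075) had 42.5 and 41.1 RPKM in DS, 297 and 351 in DP and 5.95 and 8.26 in DF. It was the 1 ligand gene called higher in the sheath than in fibroblasts. Bmp3 differed by 2.41 on the log2 scale in DS minus DF (SE 0.19, adjusted p = 0.000611), by 5.33 in DP minus DF (SE 0.19, adjusted p = 9.7e-05) and by -2.92 in DS minus DP (SE 0.19, adjusted p = 0.000288).

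Gdf10 (gene ID 14560) had 0.507 and 0.358 RPKM in DS, 137 and 183 in DP and 2.26 and 3.18 in DF. Unlike Bmp3, it was lowest in the sheath. Gdf10 differed by -1.37 on the log2 scale in DS minus DF (SE 0.24, adjusted p = 0.00798), by 5.43 in DP minus DF (SE 0.24, adjusted p = 0.000133) and by -6.80 in DS minus DP (SE 0.24, adjusted p = 5.94e-05). Both DS values were under 1 RPKM, where 1 read weighs most.

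Gdf5 and Gdf6 encode ligands best known from joint and skeletal development. Gdf5 (gene ID 14563) was listed at 0 in all 6 libraries. Gdf6 (gene ID 242316) was listed at 0 in DS and DF and at 0.0395 and 0.0251 RPKM in DP. When genes of any level were kept in the fit, the log2 difference of Gdf6 was 0.05 for DP minus DF (adjusted p = 0.505) and -0.05 for DS minus DP (adjusted p = 0.561), and Gdf5 had no value to compare.

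Taking the comparisons by population, DS was first set against DF. Among the 6 tested ligand genes, Bmp3 was called higher in DS, where 20.6% of all tested genes were called higher, and Bmp4, Bmp6, Bmp7 and Gdf10 were called lower, where 5.95% of all tested genes were called lower. Their median log2 difference was -1.68, against 0.53 over all tested genes. With median-ratio scaling the counts were again 1 higher and 4 lower. Of the 14598 genes tested with that scaling, 1173 were called higher and 1491 lower in DS than in DF. For DP minus DF 1360 were called higher, and for DS minus DP 1428 lower. In DP against DF, all 6 tested ligand genes were called higher, beside 31.5% of all tested genes, with a median of 4.59 against 0.71, and 5 were called with median-ratio scaling. In DS against DP all 6 were called lower in DS, beside 12.8% of all tested genes, with a median of -5.20 against -0.17, and the count was 6 with median-ratio scaling. DP was called higher than both other populations for 6 of the 6 tested ligand genes, beside 10.1% of all tested genes, and DS was called lower than both others for 4 of the 6, beside 2.11%. Called in either direction were 26.6% of all tested genes in DS minus DF, 38.3% in DP minus DF (6.87% lower) and 22.2% in DS minus DP (9.42% higher). The 3 comparisons share libraries. Permuting 2 libraries against 2 exactly gives 0.333 as its smallest two-sided p, so each p rests on the spread that limma pools over genes and populations.

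**Figure D3:**
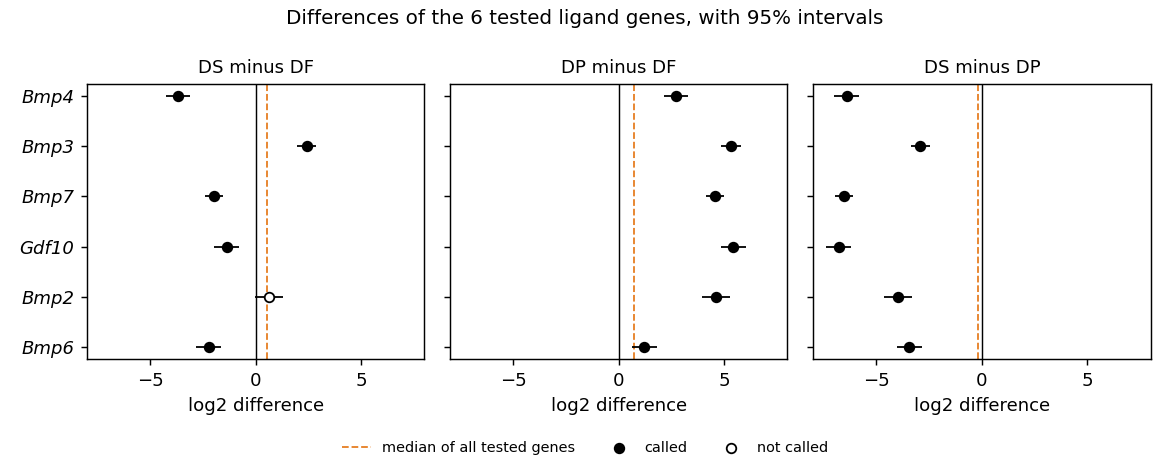
Points give the log2 difference of the 6 tested ligand genes in each comparison, with 95% intervals from the limma fit, filled where called and open where not, and the dashed line the median of all tested genes (0.53, 0.71 and -0.17). All points lie right of 0 for DP minus DF and left of 0 for DS minus DP, and Bmp6 for DP minus DF was not called with median-ratio scaling.

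Markers of other cell types were also present at unequal levels. Summed over 10 keratinocyte markers, RPKM was 60.7 to 174 in DS, 128 to 148 in DP and 66.9 to 71.6 in DF, none of the 10 was at 0 in both libraries of a population, and all 10 reached 1 RPKM in both DP libraries. The sum over 5 pericyte markers was 53.1 to 56.3 in DS, 141 to 150.4 in DP and 16.1 to 19.1 in DF, with Cspg4 at 121 and 124 RPKM in DP. Kcnj8 (0.989 and 0 RPKM in DS, 6.24 and 1.42 in DP, 6.65 and 8.89 in DF) and Abcc9 (1.32 and 0.840 in DS, 4.14 and 2.95 in DP, 5.33 and 5.13 in DF) of that list were highest in DF. Over 4 Schwann cell markers it was 1.51 to 6.55 in DS, 17 to 21.2 in DP and 1.97 to 5.85 in DF, and over 4 adipocyte markers it was 7.40 to 18.7 in DS, 13.7 to 24 in DP and 5.221 to 5.605 in DF, with Cidec at 0 in DP and DF. Leukocyte markers (7 genes) summed to 9.93 to 10.8 in DS, 10 to 11.2 in DP, where C1qb was at 0, and 31.2 to 43.9 in DF. The sum over 5 melanocyte markers was 2.89 to 4.82 in DS, 5.32 to 7.59 in DP and 15.4 to 29.4 in DF. Tyr of that list was highest in DP instead, with 2.01 and 1.48 RPKM in DS, 5.66 and 3.83 in DP and 1.39 and 2.74 in DF. For 6 endothelial markers the sum was 3.55 to 11.7 in DS, 6.16 to 13.2 in DP and 4.91 to 6.67 in DF. Tek of that list had its highest mean in DF, with 2.99 and 1.83 RPKM in DS, 1.80 and 0.133 in DP and 4.61 and 2.81 in DF. The part of such cells in the ligand values was not tested.

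The profiles of the 6 tested genes over the 6 libraries were compared with those of all tested genes by the root mean square difference of log2 values, each centred on its own mean, as a description without a test. Bmp3 lay closest to Wif1, a secreted Wnt inhibitor, with a root mean square difference of 0.10. Wif1 averaged 55.1 ± 2.95 RPKM in DS, 486 ± 57.7 in DP and 9.84 ± 3.02 in DF, which repeats the order DP, DS, DF of Bmp3. Fxyd5 (0.24) and the olfactory receptor gene Or5m3b (0.28) came next. Or5m3b was listed at 508 ± 38.6 RPKM in DS, 3189 ± 760 in DP and 101 ± 37.6 in DF. Whether those reads come from that gene was not tested. Bmp4 lay closest to Pappa (0.24), a metalloproteinase that cleaves IGF binding proteins, and then to the Wnt-related genes Apcdd1 (0.39) and Sfrp1 (0.44). Bmp7 lay closest to Cntfr (0.24), which encodes a receptor for ciliary neurotrophic factor, Chodl (0.30) and Pappa2 (0.31), and Gdf10 to Rgs2 (0.32), Lmo2 (0.32) and Rasd1 (0.34). Bmp2 was nearest to Plscr1 (0.22), Dusp4 (0.24), a phosphatase of MAP kinases, and Sema5a (0.29). Bmp6 was nearest to the heat shock gene Hspa1a (0.16), Cygb (0.21) and Ephb6 (0.26). Between ligand genes, the closest pair was Bmp7 and Gdf10 (0.39) and the most distant was Bmp3 and Bmp4 (2.51).

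Of 3 tested type I receptor genes 1 was called, as lower in DP than in DF, beside 6.87% of all tested genes. The median log2 difference of the 3 was 0.22 in DS minus DF, 0.37 in DP minus DF and 0.61 in DS minus DP, against 0.53, 0.71 and -0.17 over all tested genes. Bmpr1a, the main type I receptor for BMP2 and BMP4, had 44.4 and 46.2 RPKM in DS, 28.9 and 29.9 in DP and 21.1 and 24.1 in DF. Its DS minus DF difference was 0.98 (SE 0.14, adjusted p = 0.00438), just under the minimum for a call, and 0.36 with median-ratio scaling (adjusted p = 0.0958). Acvrl1, a type I receptor best known from endothelium, had 7.82 and 14.1 RPKM in DS, 4.31 and 8.60 in DP and 19.8 and 21 in DF, and was called lower in DP than in DF (-1.58, SE 0.38, adjusted p = 0.0163). That call ended without DF replicate 1, DF replicate 2 or DP replicate 1, with adjusted p up to 0.067 and down to 0.00628 over the alternatives. With median-ratio scaling Acvrl1 was also called lower in DS than in DF (-1.50, adjusted p = 0.0354), beside 1491 of the 14598 genes then tested. Bmpr1b, an untested type I receptor gene, stayed at or below 0.152 RPKM.

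Of 3 tested type II receptor genes, 1 was called higher in DS than in DF, 2 higher in DP than in DF and 1 lower in DS than in DP, beside 20.6%, 31.5% and 12.8% of all tested genes. Their medians were 0.45, 1.05 and -0.40, against 0.53, 0.71 and -0.17. Bmpr2 had 65.5 and 68.1 RPKM in DS, 54 and 56.7 in DP and 24.9 and 27.5 in DF. It was called higher in DS than in DF (1.32, SE 0.13, adjusted p = 0.00127) and in DP than in DF (1.05, SE 0.13, adjusted p = 0.00211), and with median-ratio scaling neither reached the minimum (0.70 and 0.22). The DP minus DF call of Bmpr2 also ended with the same sum without Mir6236 and without DF replicate 1. Acvr2b, an activin and BMP receptor, had 4.45 and 4.34 RPKM in DS, 20.3 and 12.1 in DP and 2.18 and 3.92 in DF, and was called higher in DP than in DF (2.08, SE 0.33, adjusted p = 0.00454). Its lower level in DS than in DP (-1.63, adjusted p = 0.0158) was not called without DP replicate 1, DS replicate 1 or DS replicate 2, with adjusted p up to 0.0769.

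Of the 5 tested co-receptor genes, 1 was called higher in DS than in DF, 1 higher and 1 lower in DP than in DF and 1 each way in DS against DP. Beside them stand 20.6% of all tested genes higher in DS than in DF, 31.5% higher and 6.87% lower in DP than in DF, and 9.42% higher and 12.8% lower in DS than in DP. The co-receptor medians were 0.55, -0.06 and 0.60, against 0.53, 0.71 and -0.17. Tgfbr3, or betaglycan, had 80.7 and 83.5 RPKM in DS, 29.8 and 26.6 in DP and 128 and 129 in DF, and was called lower in DP than in DF (-2.15, adjusted p = 0.000259) and higher in DS than in DP (1.51, adjusted p = 0.000679). With median-ratio scaling Tgfbr3 was also called lower in DS than in DF (-1.27, adjusted p = 0.00261), beside 1491 of the 14598 genes then tested. Rgma, a BMP co-receptor of the repulsive guidance family, had 109.8 and 103 RPKM in DS, 66.1 and 74.3 in DP and 48.4 and 44.3 in DF, and its call in DS against DF (1.18, adjusted p = 0.00191) ended with median-ratio scaling (0.56) and with the same sum without Mir6236 (0.89). Eng, or endoglin, had 21.8 and 32.1 RPKM in DS, 52.1 and 67 in DP and 14.7 and 21.5 in DF. Its calls in DP against DF (1.68, adjusted p = 0.00522) and in DS against DP (-1.13, adjusted p = 0.0302) ended with median-ratio scaling (0.86 and -0.92), and the second also without DP replicate 1, DP replicate 2 or DS replicate 1, with adjusted p up to 0.135.

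Secreted antagonists and modulators bind the ligands or change their access to receptors. Of 15 tested, 3 were called higher and 4 lower in DS than in DF, 6 higher and 2 lower in DP than in DF, and 4 higher and 2 lower in DS than in DP. Over all tested genes the shares were 20.6% and 5.95%, 31.5% and 6.87%, and 9.42% and 12.8%. With median-ratio scaling the counts were 2 and 6, 2 and 5, and 4 and 2. Of the 14598 genes then tested, 1173 and 1491, 1360 and 1950, and 1688 and 1428 were called. The antagonists' medians as deposited were -0.25, -0.04 and -0.37, against 0.53, 0.71 and -0.17 over all tested genes. Nog, which encodes noggin and binds BMP2, BMP4 and BMP7, had 21.6 and 24.2 RPKM in DS, 3.86 and 7.75 in DP and 0.358 and 0.632 in DF. The sheath, lowest in Bmp4 and Bmp7, was thus the population highest in Nog (DS minus DF 4.005, SE 0.32, adjusted p = 0.000694, and DS minus DP 1.87, SE 0.32, adjusted p = 0.00901). In DS the mean of Nog (22.9 RPKM) exceeded those of Bmp4, Bmp2, Bmp7, Bmp6 and Gdf10, but not that of Bmp3 (41.8 RPKM), all per length.

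Sostdc1, an antagonist of BMP and Wnt signals, was the antagonist gene with the largest differences in DP against DF and in DS against DP, at 0.870 and 0.679 RPKM in DS, 325 and 410 in DP and 12.9 and 18.3 in DF. Sostdc1 differed by -3.21 on the log2 scale in DS minus DF (adjusted p = 0.000464), by 4.48 in DP minus DF (adjusted p = 0.000182) and by -7.69 in DS minus DP (adjusted p = 3.89e-05), so that it had the same order of populations as Bmp4. Grem1, which encodes gremlin, was a transcript of fibroblasts, with 0.299 and 0.334 RPKM in DS, 0.765 and 0.646 in DP and 10.6 and 18.1 in DF. Grem1 was called lower in DS (-3.50, adjusted p = 0.00069) and in DP (-3.13, adjusted p = 0.000804) than in DF. Fstl3, a follistatin-like binder of activins, had 23 and 23.7 RPKM in DS, 105 and 125 in DP and 33.4 and 34.6 in DF. It was lower in DS than in DP (-2.25, adjusted p = 0.000278), and its higher level in DP than in DF (1.73, adjusted p = 0.000608) fell to 0.89 with median-ratio scaling, under the minimum. Sost had 2.31 and 11.3 RPKM in DS, 0 and 0 in DP and 0.0342 and 0.0237 in DF. Its call against DF (2.64, adjusted p = 0.0174) ended without DF replicate 1 or 2, and its call against DP (2.68, adjusted p = 0.0208) ended without DP replicate 1 or 2 and in the fit of DS and DP alone, with adjusted p up to 0.0905.

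**Figure D4:**
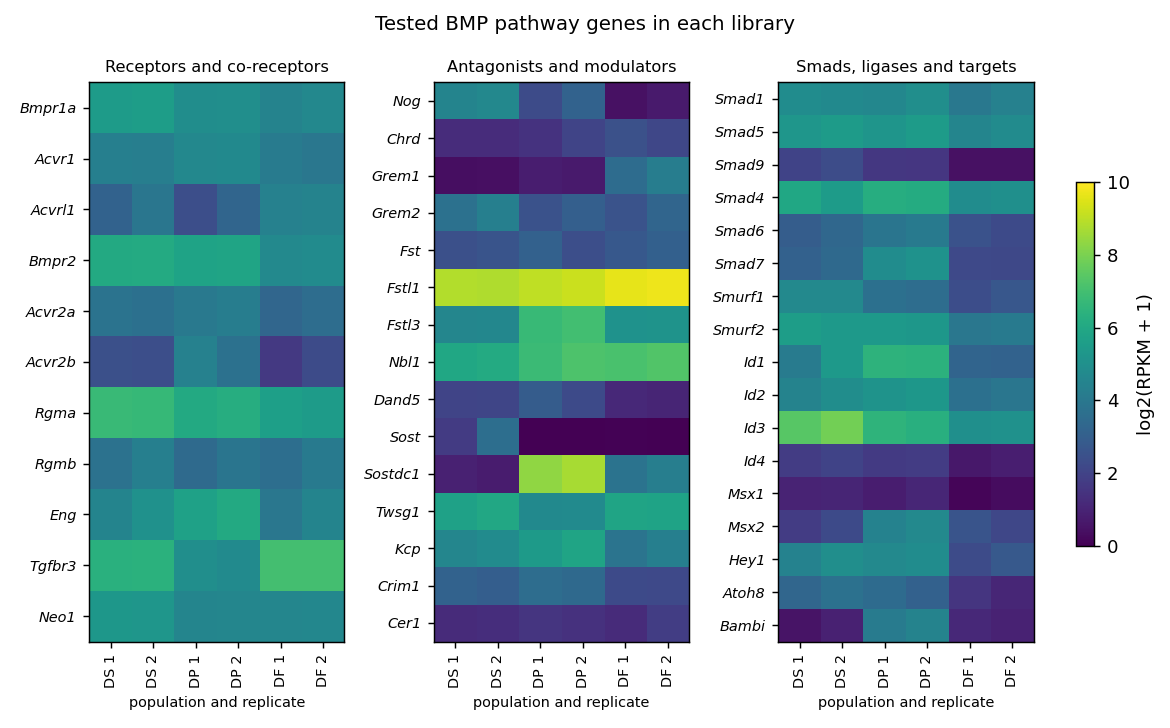
Colour gives log2(RPKM + 1) of each tested receptor, antagonist, SMAD, ligase and target gene of the BMP pathway in each of the 6 libraries. Sostdc1 is brightest in DP, at 325 and 410 RPKM, and Nog is brightest in DS, at 21.6 and 24.2 RPKM.

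SMAD genes carry the signal to the nucleus. Of 4 tested, 1 was called higher in DS than in DF and 2 in DP than in DF, beside 20.6% and 31.5% of all tested genes, with medians of 0.72 and 0.91 against 0.53 and 0.71 over all tested genes, and 0.01 in DS minus DP. Smad9 had 3.09 and 3.97 RPKM in DS, 2.09 and 1.97 in DP and 0.365 and 0.369 in DF, and was called higher in DS (1.72, adjusted p = 0.00212) and in DP (1.15, adjusted p = 0.00589) than in DF. Smad4, the common partner, had 60.4 and 43.4 RPKM in DS, 75 and 70.8 in DP and 28.4 and 30.6 in DF (DP minus DF 1.278, adjusted p = 0.00365). With median-ratio scaling the DP calls of Smad9 (0.77) and Smad4 (0.45) ended. Smad1 had 28 and 26.2 RPKM in DS, 23.6 and 29.8 in DP and 15.1 and 20.3 in DF, and neither Smad1 nor Smad5 was called in any comparison. 

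Of 4 tested inhibitory SMAD and ligase genes, 3 were called higher in DS than in DF and 4 in DP than in DF, beside 20.6% and 31.5% of all tested genes, and 1 was called higher and 1 lower in DS than in DP, beside 9.42% and 12.8%. Their medians were 1.25, 1.46 and -0.36, against 0.53, 0.71 and -0.17. With median-ratio scaling 1 was called higher in each of the comparisons with DF, beside 1173 and 1360 of the 14598 genes then tested. The inhibitory Smad7, itself induced by the pathway, had 7.65 and 9.79 RPKM in DS, 28.2 and 32.8 in DP and 3.64 and 3.54 in DF. It was called higher in DP than in DF (2.78, SE 0.20, adjusted p = 0.000404) and lower in DS than in DP (-1.70, adjusted p = 0.00218). Smurf1, a ubiquitin ligase for SMAD1 and SMAD5, had 24.8 and 25 RPKM in DS, 11.8 and 10.9 in DP and 4.15 and 5.55 in DF, and was called higher in DS than in DF (2.16, adjusted p = 0.000905). Its call in DP against DF (1.09) ended with median-ratio scaling, with the same sum without Mir6236 and without DF replicate 1, and that in DS against DP (1.07) without DP replicate 2, DS replicate 1 or DS replicate 2. The call of Smad7 in DS against DF (1.07, adjusted p = 0.0093) ended with median-ratio scaling, with the same sum without Mir6236 and without DS replicate 2. Smad6, another inhibitory SMAD, had 6.78 and 9.18 RPKM in DS, 13.9 and 16 in DP and 4.69 and 3.71 in DF (DP minus DF 1.62, adjusted p = 0.00311). Smurf2, a related ligase, had 46.8 and 40.3 RPKM in DS, 41 and 38.5 in DP and 14.7 and 16.5 in DF (DS minus DF 1.43, adjusted p = 0.00167, and DP minus DF 1.30, adjusted p = 0.00183). The calls of Smad6 and Smurf2 ended with median-ratio scaling (0.88 for Smad6 in DP, and 0.81 in DS and 0.48 in DP for Smurf2).

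In the deposited values, target genes of the pathway were called more often higher than lower against fibroblasts in both follicle populations, as were all tested genes. Of 11 tested targets, 6 were called higher in DS than in DF and 9 in DP than in DF, beside 20.6% and 31.5% of all tested genes. In each of these comparisons 0 targets were called lower, beside 5.95% and 6.87%. In DS against DP 1 was called higher and 4 lower, beside 9.42% and 12.8%. The 11 include Smad6 and Smad7, already counted among the inhibitory SMAD genes. With median-ratio scaling the counts were 3, 6, and 1 and 4, and Msx1 was not tested. Of the 14598 genes then tested, 1173, 1360, and 1688 and 1428 were called in those directions. The targets' medians as deposited were 1.07, 2.02 and -0.54, against 0.53, 0.71 and -0.17 over all tested genes. Bambi, a pseudoreceptor, had 0.441 and 0.869 RPKM in DS, 16.9 and 21.1 in DP and 1.20 and 0.921 in DF (DP minus DF 3.27, SE 0.24, adjusted p = 0.000443, and DS minus DP -3.60, adjusted p = 0.00032). Msx2, a homeobox gene with 2.47 and 3.79 RPKM in DS, 20.5 and 25.4 in DP and 4.99 and 3.43 in DF, was lower in DS than in DP as well (-2.55, SE 0.27, adjusted p = 0.00159). Bambi and Msx2 were highest in the papilla, where the ligand sum was highest too. That sum includes Bmp3, and a link between it and target levels was not tested. Hey1, a transcriptional repressor, had 20.5 and 29.9 RPKM in DS, 25.4 and 28.1 in DP and 3.83 and 5.90 in DF, higher in DS (2.16, adjusted p = 0.00266) and in DP (2.26, adjusted p = 0.00186) than in DF. Atoh8, a helix-loop-helix factor, had 8.84 and 12.3 RPKM in DS, 10.3 and 7.72 in DP and 1.88 and 1.08 in DF (DS minus DF 2.22, adjusted p = 0.00289).

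Id genes, which encode inhibitors of helix-loop-helix factors, did not share 1 order. Id1 had 17 and 40.5 RPKM in DS, 87.1 and 84.7 in DP and 8.24 and 7.83 in DF, and was called higher in DP than in DF (3.27, SE 0.38, adjusted p = 0.00181). Id3 had 169 and 234 RPKM in DS, 89 and 77.6 in DP and 30.6 and 32.5 in DF. It was called higher in DS than in DF (2.62, SE 0.19, adjusted p = 0.000508) and, alone among the 11 targets, higher in DS than in DP (1.25, SE 0.19, adjusted p = 0.00591). Id3 was thus highest in the population with the lowest ligand sum, and a link to that sum was not tested. The calls of Id1 in DS were less stable. Its DS minus DF call (1.60, adjusted p = 0.0212) ended with median-ratio scaling and without DF replicate 1, DF replicate 2 or DS replicate 2, with adjusted p from 0.0043 to 0.116, and its DS minus DP call (-1.67, adjusted p = 0.0234) ended in the fit of those 2 populations alone and without DP replicate 1 or 2, with adjusted p from 0.00309 to 0.101.

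Proteases process BMP precursors or free the ligands from their binders. Pcsk6, a proprotein convertase, had 5.08 and 1.76 RPKM in DS, 0.426 and 0.376 in DP and 21.7 and 22.4 in DF, and was called lower in DS (-2.49, adjusted p = 0.00541) and in DP (-4.04, adjusted p = 0.000964) than in DF. Pcsk5, a related convertase, had 6.58 and 5.16 RPKM in DS, 22.1 and 23.7 in DP and 8.75 and 10 in DF, and was lower in DS than in DP (-1.81, adjusted p = 0.00156). Bmp1, which despite its name encodes a procollagen proteinase that also cleaves chordin, had 30.1 and 26.7 RPKM in DS, 78.8 and 79.7 in DP and 91.7 and 104 in DF. It was called lower in DS than in DF (-1.75, adjusted p = 0.000634) and than in DP (-1.45, adjusted p = 0.00103). Over the 6 tested proteases, 2 were called lower in DS than in DF, 2 higher and 1 lower in DP than in DF, and 1 higher and 3 lower in DS than in DP. The shares over all tested genes were 5.95% lower, 31.5% higher and 6.87% lower, and 9.42% higher and 12.8% lower. With median-ratio scaling 4 were lower in DS than in DF, 0 higher and 2 lower in DP than in DF, and 1 higher and 3 lower in DS than in DP. Of the 14598 genes then tested, 1491, 1360 and 1950, and 1688 and 1428 were called in those directions. Bmp1 was then also called lower in DP than in DF (-1.14, adjusted p = 0.00206). The proteases' medians as deposited were -0.69, 0.71 and -0.84, against 0.53, 0.71 and -0.17. The Pcsk6 call in DS against DP (1.55, adjusted p = 0.0304) ended with no filter, in the fit of DS and DP alone and when any library other than DS replicate 2 was left out, with adjusted p up to 0.113. Pcsk5 (1.20, adjusted p = 0.00454) and the convertase Pcsk7 (1.02, adjusted p = 0.0251), at 13.2 and 13.2 RPKM in DS, 22.1 and 13.1 in DP and 6.93 and 8.93 in DF, were called higher in DP than in DF, and neither was with median-ratio scaling (0.41 and 0.24) or with the same sum without Mir6236. The Pcsk7 call also ended without DF replicate 1 or DP replicate 1. Tll1, a relative of Bmp1, had 2.16 and 1.47 RPKM in DS, 7.26 and 5.01 in DP and 3.48 and 4.06 in DF (DS minus DP -1.34, adjusted p = 0.0132), and that call ended without DP replicate 1 or DS replicate 2.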

How the data were processed

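RNA of sorted DS, DP and DF cells (2 libraries each) was amplified from small amounts before sequencing, per the labels' protocols. The authors deposited 1 RPKM value for each gene and library. Named in the submitters' processing notes, with no role or order, are the build GRCm39, Salmon 1.9.0 and DESeq2 1.28.1. Their annotation and filters are not stated in those notes. No coordinates of GRCm39 are used.

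Genes reaching 1 RPKM in 2 or more libraries were tested on log2(RPKM + 1). The 6 libraries were fitted together by population with limma 3.58.1 (R 4.3.3) and eBayes with a trend, which left 3 residual degrees of freedom and added 2.62 prior ones. Two-sided p-values were adjusted by Benjamini and Hochberg's method within each comparison. Calls needed an adjusted p below 0.05 together with a log2 difference of 1 or more in either direction. The procedure was tested on simulated data. SD is between the 2 libraries of a population, and SE is from the fit. The members and lists were chosen with earlier results of these data known.

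Named were all 10 ligand genes, at most 4 called genes of each pathway list in a comparison, those with the largest differences, and the 3 genes with the most similar profile to each tested ligand gene. For the profiles, small RNA genes and unnamed loci were left out. Other genes of the lists are given for their role or for an overlap with a ligand gene, chosen after their values were seen. The alternatives tried were leaving out each library, a replicate block, the fit of just the 2 populations of a comparison, median-ratio scaling, the same sum without Mir6236, no filter or one at 5 RPKM, 0.1 as pseudocount, no trend in eBayes and no fold minimum. Relative depth was the inverse of the repeated ratio of values to DF replicate 2, at which 22 to 41 genes lay. Whole reads were not recovered for most genes, so no counting intervals are given. Overlapping exons were read from GENCODE M21, and promoters from RefSeq.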

Additional observations from a re-analysis of the deposited data

How the results depend on the processing

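Across 18 differences of the 6 tested ligand genes and 15 alternatives each, 266 of 270 values kept their direction and their side of the call, and none changed sign. The other 4 concern Bmp6 for DP minus DF and are given with that gene. Over the 63 differences of named pathway genes none changed sign, and 39 kept their call in every alternative that gave a value. For ligand and pathway genes alike, several alternatives leave the log2 difference unchanged by construction, so a kept sign there carries no information. These are the changed filters, no trend in eBayes, no fold minimum, the replicate block and the fit of just the populations compared. Leaving out a library of a population outside the comparison also belongs with them. In these alternatives only the call can change. Without a fold minimum, 6558 genes were called in DS minus DF and 8642 in DP minus DF, since small differences then count. With median-ratio scaling, 3310 genes were called for DP minus DF. Leaving out 1 library gave 2903 to 4346 calls in DS minus DF. The range was 4165 to 6177 in DP minus DF and 2270 to 3272 in DS minus DP. The count of ligand genes called higher in DP than in DF was then 5 to 6.

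The replicate numbers are not stated to pair the samples. The difference of replicate 1 and 2 correlated across genes between populations with r of -0.03, -0.07 and -0.05. With the replicate block, 3838 genes were called in DS minus DF, 5591 in DP minus DF and 3163 in DS minus DP, and every ligand gene kept its call. With 2 libraries per population, values below 1 RPKM are the least precise, and DS had the lowest depth.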

Other observations

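Of 9 tested ligand genes of the superfamily outside the 10 described above, 5 were called higher and 1 lower in DP than in DF, beside 31.5% and 6.87% of all tested genes, and 6 were called lower in DS than in DP, beside 12.8%. With median-ratio scaling the counts were 5 and 2, and 6. Of the 14598 genes then tested, 1360 and 1950, and 1428 were called in those directions. Inhba, a subunit of activin A, had 44.2 and 32.2 RPKM in DS, 2119 and 2517 in DP and 49.8 and 90.1 in DF (DP minus DF 5.08, SE 0.31, limma adjusted p = 0.000291). Inhba was thus above Bmp4 in DP, per length. With median-ratio scaling Inhba was also called lower in DS than in DF (-1.44, adjusted p = 0.0104). Inhbb, another activin subunit, had 5.46 and 4.32 RPKM in DS, 91.2 and 74.5 in DP and 3.85 and 6.65 in DF (DP minus DF 3.78, adjusted p = 0.000436). Gdf11 had 1.76 and 2.41 RPKM in DS, 5.78 and 6.71 in DP and 1.004 and 1.5003 in DF (DP minus DF 1.69, adjusted p = 0.00292), and Gdf15 had 0.574 and 0 RPKM in DS, 4.79 and 3.44 in DP and 0.678 and 0.802 in DF (DS minus DP -2.01, adjusted p = 0.0047).

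The TGF-beta ligands differed in order. Tgfb2 was highest in fibroblasts, with 12.7 and 14.2 RPKM in DS, 77.6 and 75.1 in DP and 117 and 147 in DF, and was called lower in DS than in DF (-3.20, SE 0.16, adjusted p = 0.000168) and than in DP (-2.42, adjusted p = 0.000315). With median-ratio scaling Tgfb2 was also called lower in DP than in DF (-1.62, adjusted p = 0.000457). Tgfb1 was highest in the papilla and lowest in fibroblasts, with 19.9 and 33.2 RPKM in DS, 59 and 80.1 in DP and 4.04 and 4.16 in DF (DS minus DF 2.39, adjusted p = 0.00233, DP minus DF 3.77, adjusted p = 0.000471, and DS minus DP -1.38, adjusted p = 0.0165). Mstn, which encodes myostatin, did not reach the level for a test, with 0.964 and 1.26 RPKM in DS, 0 and 0 in DP and 0 and 0.0169 in DF.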
